A study of Saccharomyces cerevisiae with 16 samples.

Results

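The 10 genes described here are oxidative stress defence genes of Saccharomyces cerevisiae, whose products do not all act on reactive oxygen or nitrogen species themselves. They are the thioredoxin TRX2, the thioredoxin reductase TRR1, the peroxiredoxins TSA1, TSA2 and AHP1, the peroxidase GPX2, the superoxide dismutases SOD1 and SOD2, the flavohemoglobin YHB1 and the oxidoreductase OYE3. They were chosen by name for their role, out of 6227 genes on the array, and YHB1 was known beforehand to be low in the lines with HOG1. Its differences from the vector line and its changes with time are therefore given as a description, with no p-value. Each of the 10 genes has 1 probe, was well above background on 16 of 16 arrays and entered every test.

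Total RNA was measured on 16 single-colour arrays, 1 for each of 4 lines at 0, 45, 90 and 150 min after methionine was removed from the medium. Lines WT, H and 170 are hog1∆ cells with a plasmid on which the methionine-repressed MET3 promoter drives a version of HOG1. The line vec carries an empty plasmid and is called JBY13 in the record, which does not say whether it is the same hog1∆ strain. WT holds HOG1WT. For the others the label fields contradict each other: HOG1D170A stands for line H in its source name alone, and line 170 has HOG1D170A+F318L as source name but D170A as description. No mutation is therefore assigned. Lines WT and H lie on 1 slide, and vec and 170 on the other, each slide scanned at a time of its own. A difference between lines of different slides cannot be told apart from a difference between the slides, whereas 170 minus vec and H minus WT stay within a slide. No line and time was repeated, and nothing in the labels says how many cultures were grown, so standard errors and p-values reflect the spread over times or lines, which may be technical, and say nothing of the spread between cultures. The number of arrays limits the precision.

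Yeast disposes of hydrogen peroxide and organic peroxides mainly with peroxiredoxins. The peroxidase is oxidised by its substrate, a thioredoxin reduces it, and thioredoxin reductase restores the thioredoxin with electrons from NADPH. Superoxide is first turned into hydrogen peroxide by dismutases, 1 in the cytosol with copper and zinc and 1 in the mitochondrial matrix with manganese. Nitric oxide is oxidised to nitrate by flavohemoglobin. Many of these genes are under the transcription factors Yap1 and Skn7, and some also under Msn2 and Msn4, which serve the general stress response. Hog1, the kinase of the osmotic stress pathway, is known to act on part of the same stress genes.

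Levels are log2 of the processed signal relative to the 75th percentile of the array, so a level of 0 is the signal of that percentile, and levels of different genes are not set against each other. Differences are on the log2 scale, each with its standard error (±) from limma. A gene is said to have passed, risen or fallen where the Benjamini-Hochberg adjusted p, taken over the 6165 genes that entered, was under 0.05. The introduced gene went with the labels: on the vec arrays at 0, 45, 90 and 150 min HOG1 stood at -1.67, -2.32, -2.11 and -2.15, while line WT had 1.89, 5.64, 5.49 and 5.74, line H 1.65, 5.55, 5.44 and 5.41 and line 170 1.51, 6.12, 6.0 and 6.16. HOG1 stood already above vec at 0 min in the 3 lines that carry it. MET3, the native gene of that promoter, stood in vec at -2.48, 1.43, 2.74 and 3.20, in WT at -2.82, 2.71, 1.32 and 2.57, in H at -2.85, 2.66, 2.32 and 2.46 and in 170 at -2.73, 2.65, 2.59 and 2.88. It was higher on every later array than on the 0 min array of its line. The signal at the 75th percentile ran from 4926 to 11306 units over the arrays, and 93.4% to 98.8% of the spots were well above background. The 2 spots of a probe differed by a median of 0.035 to 0.16 log2 units for the 10 genes, at most 0.29, for AHP1.

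YHB1 showed the widest range of the 10 genes, 4.52 log2 units. Its product, flavohemoglobin, is the nitric oxide dioxygenase of yeast. In vec YHB1 stood at 3.17, 1.56, 2.21 and 2.34 at the 4 times. In WT it stood at 2.37, -0.076, -0.22 and -0.40. Line H had 2.09, -0.21, -0.96 and -0.75, and line 170 had 1.46, -1.18, -1.35 and -1.24. Its level dropped with methionine removal on the vec arrays too, but came part of the way back there by 90 min, while on the arrays of the HOG1 lines it stayed low to 150 min. At every time the order was vec, WT, H and 170 from high to low, and after removal no array of a HOG1 line reached the lowest vec array. How many of all genes do the same was not counted. In RNA of whole cultures, less transcript per cell and fewer cells that make it cannot be told apart. The difference from vec at 45, 90 and 150 min came to -1.64, -2.43 and -2.74 for WT, to -1.77, -3.17 and -3.09 for H and to -2.74, -3.56 and -3.58 for 170. The means were -2.27 ± 0.24, -2.68 ± 0.24 and -3.29 ± 0.24, or 4.81-fold, 6.39-fold and 9.79-fold lower. By size this was the lowest of the 6165 genes in H and 170, and in WT the second lowest. As the gene was known to be low in these lines when it was chosen, its rank is not an independent result. The within-slide difference, 170 minus vec, was the widest of the 3.

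YHB1 was known to be low in the HOG1 lines, so p-values between these lines are not independent of its choice. Among the HOG1 lines themselves YHB1 was lower in 170 than in WT (-1.02 ± 0.24, limma adjusted p = 0.023, at 3 of 3 times), across slides. It no longer passed without the arrays at 90 min (-0.97, adjusted p = 0.29) or at 150 min (-1.12, adjusted p = 0.11). Neighbours in the order did not differ beyond their spread by the test, with -0.41 ± 0.24 for H minus WT (adjusted p = 0.28) and 0.62 ± 0.24 for H minus 170 (adjusted p = 0.11). Without the arrays at 45 min H minus WT passed, at -0.55 (adjusted p = 0.031). Part of the separation from vec was there before methionine was removed, with differences at 0 min of -0.80 (WT), -1.08 (H) and -1.71 (170). Taken from each line's own 0 min array, the change in YHB1 at the later times was -1.61, -0.96 and -0.83 in vec and -2.44, -2.58 and -2.77 in WT. In line H it was -2.31, -3.05 and -2.84, and in line 170 -2.64, -2.81 and -2.70. The 3 HOG1 lines lay at mean changes of -2.60, -2.73 and -2.72, against -1.13 in vec.

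**Figure D1:**
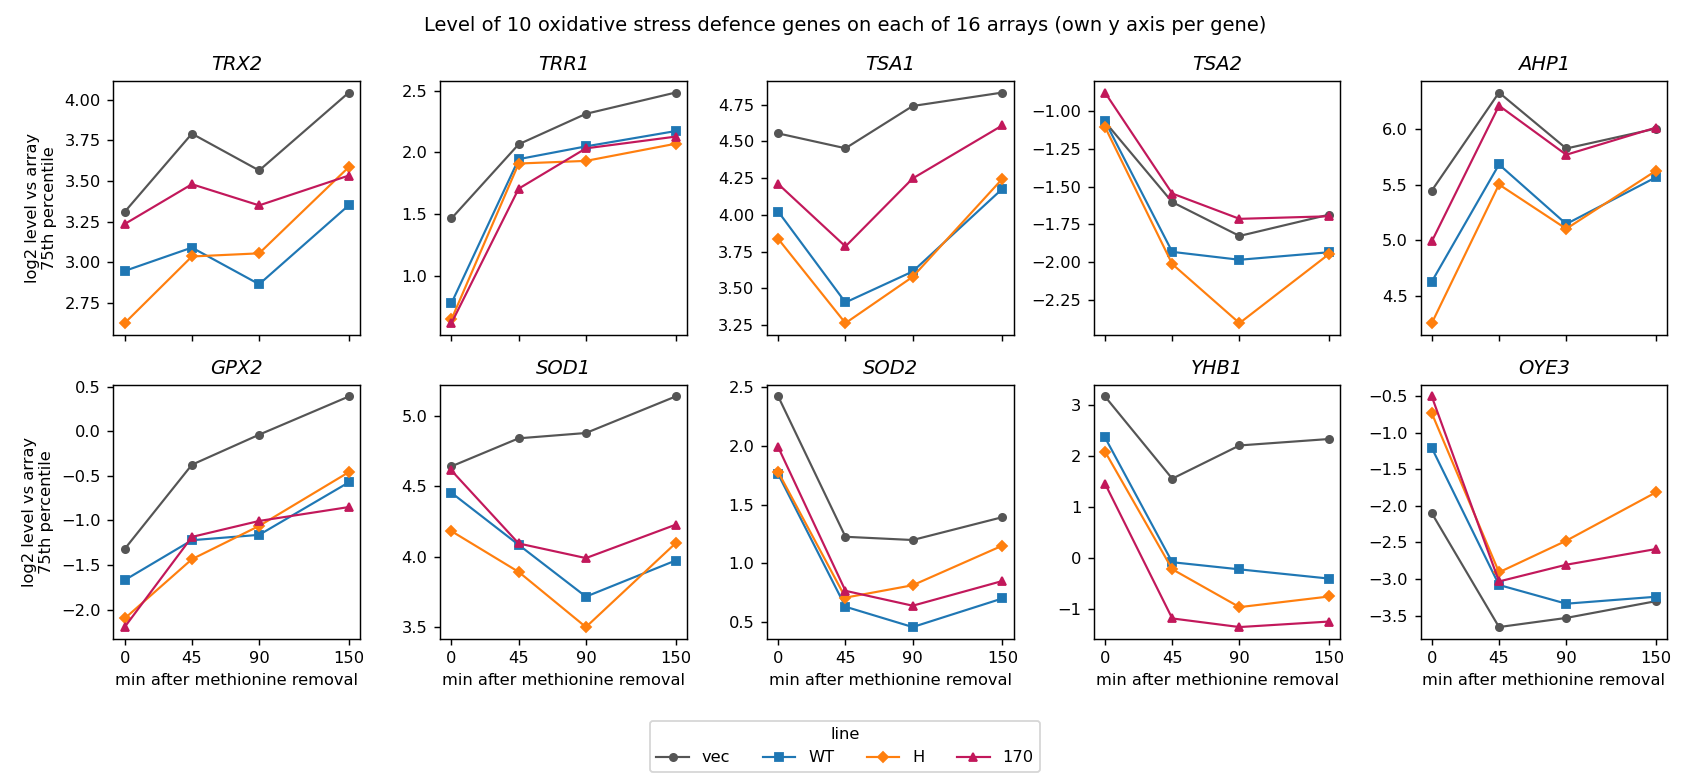
Log2 level relative to the array's 75th percentile (y axis, a scale of its own for each gene) against min after methionine removal (x axis) for the 10 genes; each point is 1 array, and lines join the arrays of vec, WT, H and 170. YHB1 stays low in the HOG1 lines, SOD1 lies above its 0 min level on the later vec arrays and below it on those of the other lines, and OYE3 is the gene with vec at the bottom.

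Of the thioredoxin pair TRR1 rose with time, whereas the direction of TRX2 depended on the scaling. TRR1, whose product recycles oxidised thioredoxin, stood in vec at 1.47, 2.07, 2.31 and 2.49, in WT at 0.78, 1.95, 2.05 and 2.17, in H at 0.65, 1.91, 1.93 and 2.07 and in 170 at 0.62, 1.71, 2.03 and 2.13. Every later array was above the 0 min array of its line, and TRR1 rose over the 4 lines by 1.03 ± 0.10, 1.2 ± 0.10 and 1.34 ± 0.10 at 45, 90 and 150 min (limma, largest adjusted p = 1.7e-06, in 4 of 4 lines). TRX2, a cytosolic thioredoxin, stood in vec at 3.31, 3.79, 3.57 and 4.04, in WT at 2.95, 3.09, 2.87 and 3.35, in H at 2.63, 3.04, 3.06 and 3.59 and in 170 at 3.24, 3.48, 3.35 and 3.53. Its vec arrays were above the arrays of the other lines at each time. Over the 4 lines TRX2 was higher by 0.32 ± 0.10 at 45 min (adjusted p = 0.014) and by 0.60 ± 0.10 at 150 min (adjusted p = 2.3e-04), not past the test at 90 min (0.18 ± 0.10, adjusted p = 0.14), but with quantile normalization the 3 values turned to -0.52, -0.65 and -0.22, so no direction with time is given for it. At 45 min it also missed the threshold without the line vec (0.27, adjusted p = 0.072).

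The 3 peroxiredoxins parted in time. AHP1, a peroxiredoxin with a preference for alkyl hydroperoxides, stood in vec at 5.45, 6.33, 5.83 and 6.01, in WT at 4.63, 5.68, 5.14 and 5.57, in H at 4.25, 5.50, 5.10 and 5.62 and in 170 at 4.99, 6.21, 5.77 and 6.01. It was highest at 45 min in vec, WT and 170, and in H at 150 min. AHP1 rose by 1.1 ± 0.11, 0.63 ± 0.11 and 0.97 ± 0.11 at the 3 times (largest adjusted p = 1.5e-04, in 4 of 4 lines), and the change at 90 min came to 0.089 with quantile normalization (adjusted p = 0.55). TSA1, the main cytosolic peroxiredoxin, stood in vec at 4.55, 4.45, 4.74 and 4.83, in WT at 4.02, 3.40, 3.61 and 4.18, in H at 3.84, 3.26, 3.58 and 4.25 and in 170 at 4.21, 3.79, 4.25 and 4.61. It dipped at 45 min and was above its 0 min level in each line at 150 min. The dip was -0.43 ± 0.11 (adjusted p = 0.0035, in 4 of 4 lines), 90 min was not past the test (-0.11 ± 0.11, adjusted p = 0.38), and the value at 150 min, 0.31 ± 0.11 (adjusted p = 0.022), turned to -0.50 with quantile normalization and missed the threshold without line H (adjusted p = 0.095) or without line 170 (adjusted p = 0.11). TSA2, the paralog of TSA1 known as the stress-inducible copy, stood in vec at -1.07, -1.60, -1.83 and -1.69, in WT at -1.07, -1.93, -1.98 and -1.93, in H at -1.1, -2.01, -2.40 and -1.95 and in 170 at -0.88, -1.54, -1.71 and -1.70. It was lower on every later array than on the 0 min array of its line. TSA2 fell by 0.74, 0.95 and 0.79 log2 units (largest adjusted p = 1.2e-05). TSA1 and TSA2 are close relatives, and the probe sequences were not used here, so how far the probes tell the transcripts apart was not tested.

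GPX2 rose with time, in 4 of 4 lines. It encodes a peroxidase of the glutathione peroxidase family. GPX2 stood in vec at -1.32, -0.38, -0.039 and 0.39, in WT at -1.67, -1.22, -1.16 and -0.57, in H at -2.10, -1.43, -1.06 and -0.46 and in 170 at -2.19, -1.18, -1.01 and -0.85. The values climbed with each later time in every line, and from 45 min on every vec array lay above all the HOG1-line arrays. The share of all genes with such a gap was not counted. The rise over the 4 lines was 0.77 ± 0.13, 1.0 ± 0.13 and 1.45 ± 0.13 at 45, 90 and 150 min (largest adjusted p = 1.3e-04).

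The superoxide dismutases behaved unlike each other. SOD2, the mitochondrial manganese enzyme, stood in vec at 2.42, 1.23, 1.2 and 1.39, in WT at 1.76, 0.63, 0.46 and 0.70, in H at 1.78, 0.71, 0.81 and 1.15 and in 170 at 1.99, 0.77, 0.64 and 0.85. Its 0 min arrays were the highest in each line, and it fell by 1.15, 1.21 and 0.96 log2 units at the 3 times (largest adjusted p = 9.9e-07, in 4 of 4 lines). SOD1, the cytosolic copper and zinc enzyme, stood in vec at 4.64, 4.84, 4.88 and 5.14, in WT at 4.45, 4.08, 3.71 and 3.97, in H at 4.18, 3.89, 3.50 and 4.09 and in 170 at 4.61, 4.09, 3.99 and 4.23. In vec every later array was above the 0 min array, by 0.20, 0.24 and 0.50, whereas in WT (-0.37, -0.74 and -0.48), H (-0.29, -0.68 and -0.086) and 170 (-0.52, -0.62 and -0.39) every later array was below it. Over the 4 lines together SOD1 passed at 90 min alone (-0.45 ± 0.15, adjusted p = 0.016), and there it missed the threshold without line WT (adjusted p = 0.11), H (adjusted p = 0.11) or 170 (adjusted p = 0.091). Without line vec it passed at 45 min (-0.39) and 150 min (-0.32) too.

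OYE3 was the member with its lowest levels in vec. Its product, an old yellow enzyme, reduces unsaturated aldehydes and ketones with NADPH. OYE3 stood in vec at -2.10, -3.66, -3.53 and -3.30, in WT at -1.21, -3.08, -3.34 and -3.24, in H at -0.73, -2.91, -2.48 and -1.82 and in 170 at -0.51, -3.03, -2.81 and -2.59. The vec array was the lowest at each time, and the 0 min array was the highest in each line. OYE3 fell by 2.03, 1.90 and 1.60 log2 units at 45, 90 and 150 min (largest adjusted p = 9.3e-06, in 4 of 4 lines). After 45 min its level was higher at each time in vec, H and 170, in H from -2.91 at 45 min to -1.82 at 150 min. In WT it was lower at 90 and 150 min than at 45 min.

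Counted over the 9 genes other than YHB1, methionine removal was followed by changes in both directions. At 45 min 4 of 9 were higher and 4 lower (limma), where 31.8% of all genes were higher and 44.5% lower. At 90 min 3 were higher and 4 lower, against 33.7% and 41.1% of all genes, and at 150 min 5 and 3, against 33.6% and 40.0%. TRX2, whose sign turned with quantile normalization, is among those higher at 45 and 150 min, and TSA1, whose sign turned at 150 min, among those higher then. The 5 higher at 150 min came to 3 with quantile normalization and to 3 on the slide of vec and 170 alone. The median changes of the 9 genes were -0.25, -0.11 and 0.31, beside -0.17, -0.079 and -0.074 for all genes. Median scaling moves the median of all genes at 45 min from -0.17 to -0.017. The mean change of YHB1 over the 4 lines was -2.25, -2.35 and -2.29, below 0 in 4 of 4 lines. As there was no line kept with methionine throughout, the removal cannot be told apart from elapsed time.

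Against the vector line after removal, most of the defence genes were lower in each HOG1 line. Besides YHB1, 6 of 9 were lower in WT, with none higher, where 12.8% of all genes were lower and 16.9% higher (limma). In H 8 of 9 were lower and 1, OYE3, higher, against 24.6% and 25.2% of all genes. In 170 6 of 9 were lower and OYE3 higher, against 16.4% and 16%. The medians of the 9 genes were -0.68, -0.57 and -0.35 in WT, H and 170, beside 0.030, -0.0067 and -0.029 for all genes. The 3 comparisons share the vec arrays, so they are not independent of each other. Without the arrays at 90 min 1 of 9 was lower in WT, 5 in H and 2 in 170, where OYE3 no longer passed either, and over all genes the number called dropped with it, in WT from 1829 to 193. Fitted on the 2 lines alone, 5 were lower in H and 3 in 170, and with quantile normalization 5 in H.

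SOD1, GPX2 and TSA1 were lower than vec in each of the 3 lines. SOD1 was lower in each line, at -1.03 ± 0.11 for WT, -1.13 ± 0.11 for H and -0.85 ± 0.11 for 170 (largest adjusted p = 6.4e-04, at 3 of 3 times in each), or 2.04-fold, 2.18-fold and 1.8-fold lower. The lowest vec array after removal stood at 4.84, the highest of the HOG1 lines at 4.23. How many of all genes part vec from the HOG1 lines in this way was not counted. GPX2 was lower in each line too, -0.98 ± 0.12, -0.98 ± 0.12 and -1.01 ± 0.12 (largest adjusted p = 0.001), and in WT it missed the threshold without the arrays at 90 min (adjusted p = 0.055). TSA1 was lower in WT (-0.94 ± 0.12) and H (-0.98 ± 0.12), and within the slide of vec also in 170, at -0.46 ± 0.12 (largest adjusted p = 0.018, at 3 of 3 times in each). In 170 that call was lost without the arrays at 45 min (adjusted p = 0.11) or 90 min (adjusted p = 0.17), and in WT without those at 90 min (adjusted p = 0.057).

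TRX2 and SOD2 were also lower in each of them, and the other members passed in 1 or 2 lines. TRX2 was at -0.70 ± 0.098, -0.57 ± 0.098 and -0.35 ± 0.098 (largest adjusted p = 0.026), and in H and 170 it missed the threshold with quantile normalization (adjusted p = 0.11 and adjusted p = 0.21). SOD2 was at -0.68 ± 0.085, -0.38 ± 0.085 and -0.52 ± 0.085 (largest adjusted p = 0.0057), and it missed the threshold in all 3 lines without the arrays at 90 min. AHP1 was lower in WT (-0.59 ± 0.092, adjusted p = 0.0025) and H (-0.64 ± 0.092, adjusted p = 5.7e-04) on this scale, but with quantile normalization it came to -0.20 and 0.038, neither past the test. In 170, on the slide of vec, AHP1 was at -0.055 ± 0.092 (adjusted p = 0.69). TSA2 passed in H alone (-0.42 ± 0.094, adjusted p = 0.0059), and it was at -0.25 ± 0.094 in WT (adjusted p = 0.079) and 0.053 ± 0.094 in 170 (adjusted p = 0.71). TRR1 was at -0.23 ± 0.080 in WT (adjusted p = 0.057), and it was lower in H (-0.32 ± 0.080, adjusted p = 0.01) and 170 (-0.33 ± 0.080, adjusted p = 0.013), where both calls were lost without the arrays at 90 or at 150 min. OYE3 was higher in H (1.1 ± 0.19, 2.14-fold, adjusted p = 0.0014) and 170 (0.69 ± 0.19, adjusted p = 0.021) and at 0.28 ± 0.19 in WT (adjusted p = 0.28), where the gap to vec shrank from -3.08 against -3.66 at 45 min to -3.24 against -3.30 at 150 min.

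**Figure D2:**
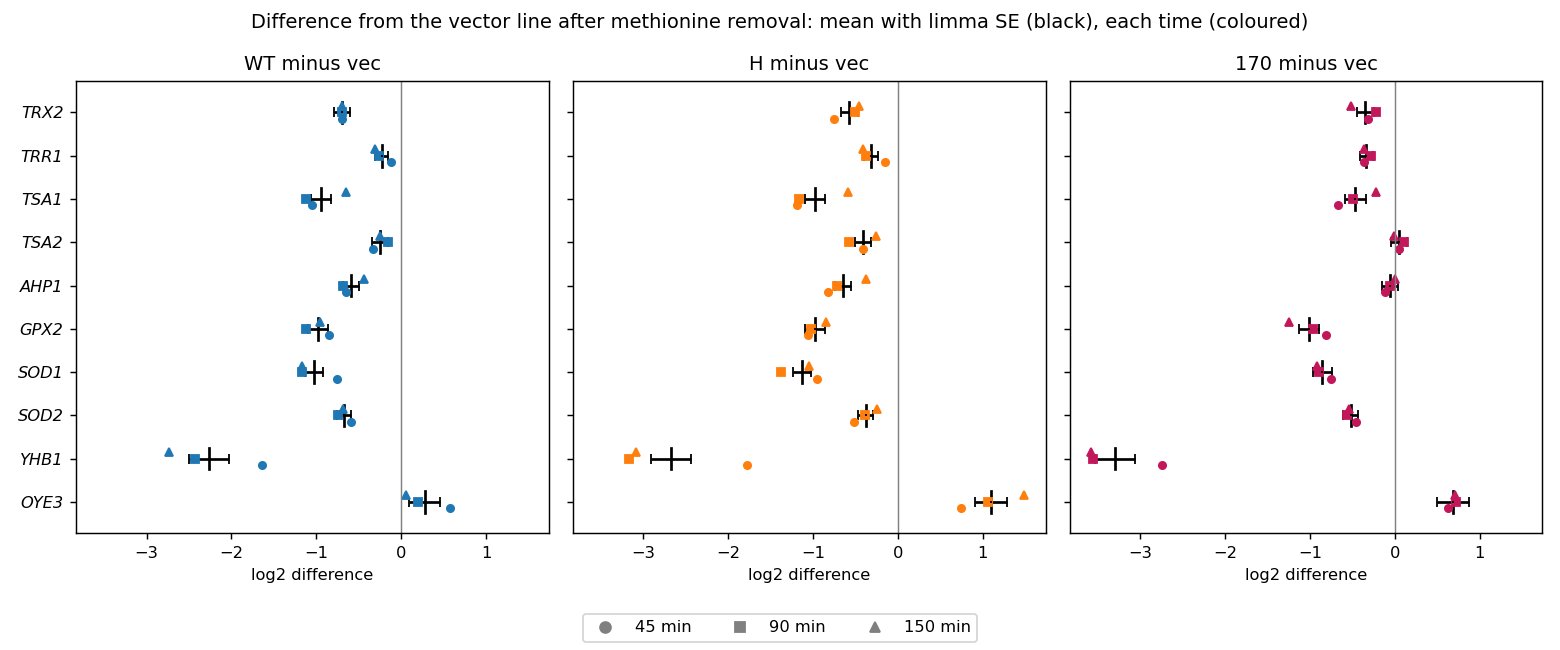
Log2 difference from the vector line after methionine removal (x axis) for each gene (y axis) in WT, H and 170; coloured points are the differences at 45, 90 and 150 min, and the black bar with whiskers is their mean and limma's standard error. YHB1 lies farthest to the left in each panel, at -2.27, -2.68 and -3.29, and OYE3 is the only gene whose points all lie right of 0 in each panel.

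Part of these differences stood before methionine was removed. At 0 min the 3 HOG1 lines already differed from vec in HOG1 itself. Besides YHB1, 3 of 9 genes were lower than vec in WT, 6 lower and 1 higher in H, and 2 lower and 1 higher in 170 (limma). Of all genes 13% were lower and 11.4% higher for WT; for H these shares were 17.8% and 14.5%, for 170 18.5% and 12.2%. TRR1 was lower in the 3 lines, at -0.69 ± 0.14, -0.82 ± 0.14 and -0.85 ± 0.14 (largest adjusted p = 0.009). AHP1 was lower in WT (-0.82 ± 0.16, adjusted p = 0.0075) and H (-1.19 ± 0.16, adjusted p = 0.001), and -0.46 ± 0.16 in 170 (adjusted p = 0.058). SOD2 was lower in WT (-0.66 ± 0.15) and H (-0.64 ± 0.15, larger adjusted p = 0.014), GPX2 in H (-0.78 ± 0.20, adjusted p = 0.019) and 170 (-0.88 ± 0.20, adjusted p = 0.012), and TRX2 (-0.68 ± 0.17, adjusted p = 0.016) and TSA1 (-0.72 ± 0.21, adjusted p = 0.028) in H alone. OYE3 was higher in H (1.37 ± 0.32, adjusted p = 0.013) and 170 (1.60 ± 0.32, adjusted p = 0.0065), and 0.89 ± 0.32 in WT (adjusted p = 0.073). SOD1 was not apart from vec in the test, at -0.19 ± 0.19, -0.46 ± 0.19 and -0.030 ± 0.19 (smallest adjusted p = 0.088), nor was TSA2, at 0.0036, -0.034 and 0.19. These differences rest on 1 array per line, with the spread taken from the later times. Without the arrays at 90 min the genes called lower came to none in WT, 2 in H and 1 in 170, and OYE3 no longer passed in H.

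When each line was measured from its own 0 min array, which also takes out any constant offset between the slides, SOD1 was the gene of the 9 that passed. The change in SOD1 was lower than that of vec in WT (-0.84 ± 0.21, adjusted p = 0.045) and 170 (-0.82 ± 0.21, adjusted p = 0.028), and for H it missed the threshold (-0.66 ± 0.21, adjusted p = 0.061). Without the arrays at 90 min or those at 150 min SOD1 missed it in WT (adjusted p = 0.26 and adjusted p = 0.14) and in 170 (adjusted p = 0.13 and adjusted p = 0.088), and without those at 45 min it passed in H (-0.75). That is 1 of 9 lower in WT, none in H and 1 in 170, against 2.61%, 6.70% and 7.58% of all genes lower and 5.76%, 12% and 13.6% higher. TRR1 lay the other way, with a change above that of vec, at 0.45 ± 0.16, 0.50 ± 0.16 and 0.52 ± 0.16 (adjusted p = 0.12, 0.060 and 0.051), past the threshold in 170 in 5 of the alternatives that keep all times. YHB1 was at -1.46 ± 0.47, -1.60 ± 0.47 and -1.58 ± 0.47. The other 7 genes lay between -0.91 and 0.55 in the 3 lines with adjusted p from 0.068 to 0.97. On simulated arrays this fit recovered 28.4% of changes of 1 log2 unit in H minus vec, so genes not called may still have changed. Of its calls there 10% were of genes left unchanged, at the same threshold of 0.05, so a call of this fit may also be false. In H against WT the change from 0 min called 0 of 6165 genes (limma), with 321 (5.21%) at an unadjusted p under 0.05, and the 10 genes lay between -0.13 and 0.44 there.

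**Figure D3:**
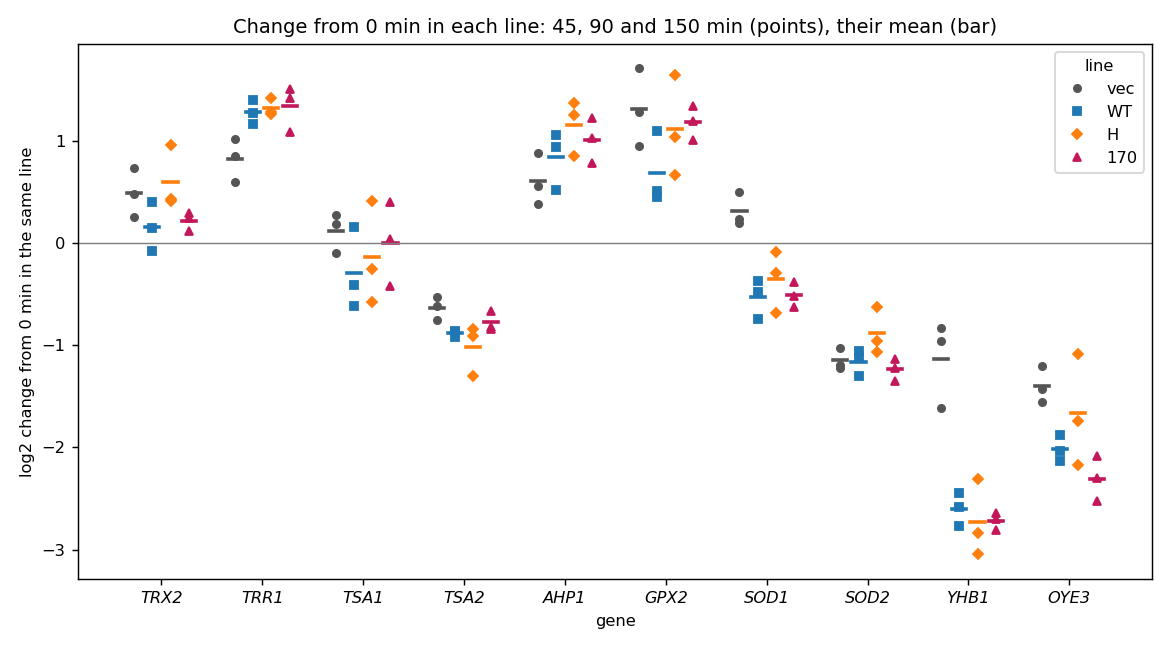
Log2 change from the 0 min array of the same line (y axis) for the 10 genes (x axis) in vec, WT, H and 170; points are 45, 90 and 150 min and the bar is their mean. SOD1 lies above 0 at 3 of 3 times in vec and below 0 at 3 of 3 times in each HOG1 line, and YHB1 drops by a mean of 1.13 in vec and by 2.60 to 2.73 in the HOG1 lines.

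Among the HOG1 lines the number of the 10 genes that passed differed with the pair compared. H minus WT, the comparison within a slide, gave 1 gene, OYE3, higher in H at 0.82 ± 0.19 (adjusted p = 0.039, at 3 of 3 times, 0.17, 0.86 and 1.43 at 45, 90 and 150 min), where 4.56% of all genes were higher and 1.67% lower. The call was lost without the arrays at 90 min (adjusted p = 0.53) or at 150 min (0.52, adjusted p = 0.27), and on the deposited value table (0.82, adjusted p = 0.095). Without those at 45 min 2 genes were higher, OYE3 and SOD2, and YHB1 lower. Across slides, 170 minus WT gave AHP1 (0.53 ± 0.092, adjusted p = 0.0095), TSA1 (0.48 ± 0.12, adjusted p = 0.028) and TRX2 (0.35 ± 0.098, adjusted p = 0.041) higher in 170 and YHB1 lower, 3 and 1 of 10, against 6.88% and 10.9% of all genes. The call of YHB1 is not independent of how that gene was chosen. H minus 170 gave AHP1 (-0.59 ± 0.092, adjusted p = 0.0071), TSA1 (-0.52 ± 0.12, adjusted p = 0.022) and TSA2 (-0.47 ± 0.094, adjusted p = 0.014) lower in H, 3 of 10, against 6.68% lower and 9.75% higher. None of the 10 passed in either of these without the arrays at 90 min or without those at 150 min, and without those at 45 min 1 did in H minus 170. GPX2 did not pass between the HOG1 lines, at 0.00045 ± 0.12, -0.028 ± 0.12 and 0.029 ± 0.12 for H minus WT, 170 minus WT and H minus 170 (smallest adjusted p = 0.89), while it was below vec in each of them.

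The other genes of these pathways give the setting of the members. The later times were averaged and set against 0 min over the 4 lines together, so a single line can differ from the value given. Of all genes 34.8% were higher and 44.2% lower (limma). Of the other thioredoxin and peroxiredoxin genes 2 of 6 rose and 4 fell. TRX1, the second cytosolic thioredoxin, rose (1.18 ± 0.22), and SRX1 (-1.25 ± 0.23), which repairs overoxidised peroxiredoxin, and the mitochondrial TRR2 (-0.95 ± 0.074) and PRX1 (-0.92 ± 0.16) fell. Of 12 glutathione and glutaredoxin genes 4 rose and 5 fell, among them the monothiol glutaredoxin gene GRX4 (-1.87 ± 0.16), the peroxidase gene GPX1 (-1.66 ± 0.13) and the transferase gene GTT2 (-1.42 ± 0.089) down and GRX3 (0.77 ± 0.12) up. CTT1, the cytosolic catalase gene, fell (-2.56 ± 0.21), as did CCP1 (-1.30 ± 0.12), the cytochrome c peroxidase gene, and CTA1 (-0.56 ± 0.17), the peroxisomal catalase gene, while MXR1 (1.13 ± 0.33), a methionine sulfoxide reductase gene, rose with the copper chaperone gene CCS1, 2 and 3 of 6. None of 9 regulators rose and 6 fell, with HAP1 (-1.62 ± 0.18), ROX1 (-1.21 ± 0.12), MSN4 (-1.16 ± 0.12) and YAP1 (-0.50 ± 0.074) among them, and SKN7 was at -0.065 ± 0.098. The list of 8 NADPH supply genes also holds pentose phosphate genes, RPE1 among them, whose enzymes make no NADPH. Of the 8 genes 6 rose and 2 fell, with ALD6 (3.56 ± 0.46), GND1 (1.46 ± 0.16) and RPE1 (1.05 ± 0.11) up and IDP2 (-1.25 ± 0.13) and ZWF1 (-0.36 ± 0.13) down. The change in ALD6 lay above that of vec by 3.47 in WT, 2.56 in H and 3.96 in 170 (limma, largest adjusted p = 0.0076). Of 7 detoxification and export genes known as Yap1 targets 1, GRE2 (1.77 ± 0.44), rose and 4 fell, ATR1 (-2.34 ± 0.23), AAD6 (-1.31 ± 0.086) and FLR1 (-0.99 ± 0.073) among them, and OYE2, the paralog of OYE3, was at 0.096 ± 0.13. The rise of GRE2 was not shared evenly by the lines. Its change lay above that of vec by 2.12 in WT, 3.18 in H and 2.95 in 170 (limma adjusted p = 0.14, 0.029 and 0.034). SFA1 (0.62 ± 0.11), whose product clears S-nitrosoglutathione, rose, and the sulfite pump gene SSU1 (-2.28 ± 0.13) fell. Of 20 general stress genes 1 rose and 16 fell, with a median of -1.48, against -0.076 for the 9 members other than YHB1 and -0.11 for all genes.

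Against vec after removal these lists moved in both directions too, where the percentages of all genes given above apply. The other thioredoxin and peroxiredoxin genes had 1 higher and 1 lower of 6 in WT, 3 and 1 in H, and 3 and none in 170. SRX1 was higher in WT (0.78 ± 0.23), H (2.19 ± 0.23) and 170 (1.56 ± 0.23) (largest adjusted p = 0.034), after 2.42, 2.74 and 2.65 at 0 min. In H PRX1 (0.95 ± 0.22) and TRR2 (0.29 ± 0.092) were higher, and TRX1, like TRX2, lower (-0.83 ± 0.26). The catalase gene CTT1 was higher in H (1.15 ± 0.20, adjusted p = 0.0016) and 170 (1.09 ± 0.20, adjusted p = 0.0035), and MXR1 lower in the 3 lines (-0.94 ± 0.23, -1.2 ± 0.23 and -1.29 ± 0.23, largest adjusted p = 0.017), its list having none higher and 2 lower of 6 in WT, 1 and 3 in H, then 1 and 2 in 170. The glutathione and glutaredoxin list had none higher and 3 lower of 12 in WT, 3 and 2 in H, then 2 and 1 in 170. In H GRX4 was lower (-0.74 ± 0.12), and GTT2 (0.60 ± 0.12), GPX1 (0.51 ± 0.15) and the glutathione reductase gene GLR1 (0.23 ± 0.083) were higher, while HYR1, the peroxidase that senses peroxide for Yap1, was at -0.12 ± 0.16. Regulators had 1 higher and 1 lower of 9 in WT and 2 and 1 in H and in 170. MSN4 (1.45 ± 0.19) and MSN2 (0.81 ± 0.16) were higher and ROX1 (-0.44 ± 0.10) lower in H, whereas YAP1 (0.23 ± 0.086) and SKN7 (0.21 ± 0.15) did not pass. Before removal, at 0 min, MSN4, MSN2 and ROX1 had been at 1.41, 0.48 and 0.51 against vec in H (limma adjusted p = 0.013, 0.22 and 0.052). NADPH supply had 1 higher and 3 lower of 8 in each line. In H these were IDP2 (1.12 ± 0.12), and SOL3 (-0.97 ± 0.15), GND1 (-0.78 ± 0.095) and TAL1 (-0.52 ± 0.075). Of 7 Yap1 targets 2 were higher and 1 lower in WT, 2 and 2 in H, then 1 and 2 in 170. GRE2 (3.57 ± 0.41) and AAD6 (0.72 ± 0.13) were higher in H and FLR1 (-0.44 ± 0.093) and OYE2 (-0.78 ± 0.15) lower, the latter opposite to its paralog OYE3. SFA1 was higher in the 3 lines (0.79 ± 0.12, 1.17 ± 0.12 and 1.26 ± 0.12) and SSU1 did not pass in any. The general stress genes had 3 higher and 2 lower of 20 in WT, 12 and none in H, then 11 and none in 170 (1 and 1, 8 and none, and 6 and none without the arrays at 90 min), with medians of 0.28, 0.95 and 0.90, beside -0.68, -0.57 and -0.35 for the 9 defence genes. At 0 min 2, 7 and 9 of the 20 were already higher than vec in WT, H and 170 and none lower (0, 2 and 5 higher without the arrays at 90 min), with medians of 0.70, 0.94 and 0.99. In the change from 0 min against vec none of the 20 was higher or lower for WT, 2 and 2 were for H, and 2 and 4 for 170, with medians of -0.25, 0.064 and -0.12.

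**Figure D4:**
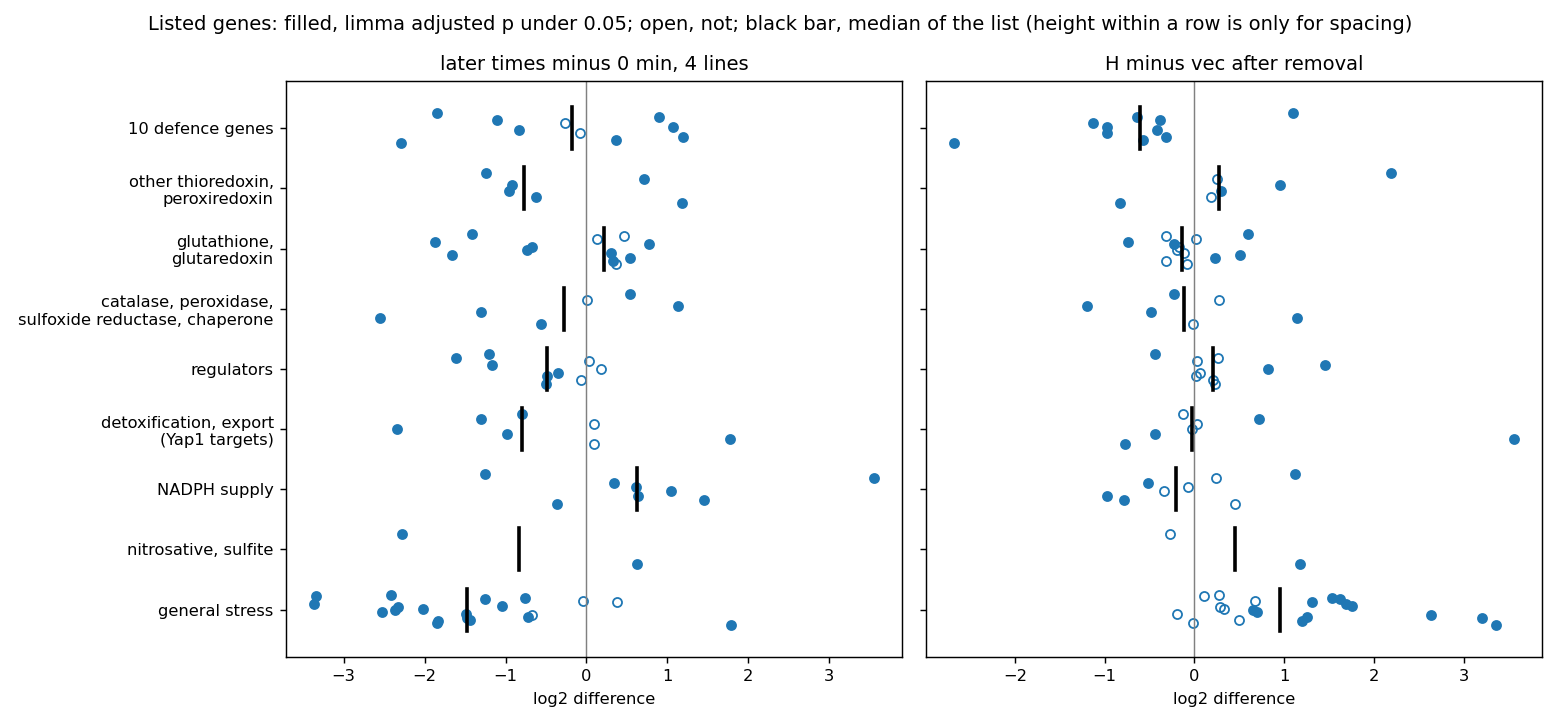
Log2 difference (x axis) of each gene of the lists (y axis) for the average of 45, 90 and 150 min minus 0 min over the 4 lines and for H minus vec after removal; each circle is a gene, filled where limma's adjusted p was under 0.05, and the black bar is the median of its list. On the right the general stress genes have a median of 0.95 and the 10 defence genes one of -0.61. The latter includes YHB1, which was known beforehand to be low in the HOG1 lines, so the fill of its circles is not to be read as a test.

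Markers of mating type a moved with the lines. After removal 4 of 5 such genes were lower than vec in WT and 5 in H and in 170, where 12.8%, 24.6% and 16.4% of all genes were lower. At 0 min 5 of 5 were already lower in each line, with medians of -1.37, -2.12 and -2.72, where 13%, 17.8% and 18.5% of all genes were lower. Their summed log2 level over the arrays of a line ran from 3.30 to 4.87 in vec, 2.52 to 3.47 in WT, 1.99 to 2.69 in H and 1.94 to 2.12 in 170. The 3 markers of mating type alpha summed to between -4.38 and -2.80 in all lines, and 5 markers of meiosis to between -2.02 and -0.78. Of the alpha markers MF(ALPHA)1 was lower than vec as well, at 0 min by -2.21, -2.53 and -2.25 in WT, H and 170. After removal it was at -0.70, -0.58 and -0.53 (limma, largest adjusted p = 0.022 over both). STE3 was lower in 170 alone, at -1.33 at 0 min and -0.57 after removal (larger adjusted p = 0.045). MF(ALPHA)2 passed in no line. MF(ALPHA)1 and MF(ALPHA)2 were not well above background on every array, and no marker was at 0. The part of the mating type genes in the results above was not tested.

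The profile of YHB1 over the 16 arrays was most like those of 5 genes outside the set. They were ARO9 (Pearson's r = 0.96) and ARO10 (0.94), of aromatic amino acid breakdown, YGR035C (0.95), CYB5 (0.95), the cytochrome b5 gene, and HMG1 (0.94), a reductase gene of sterol synthesis. Among the members YHB1 ran closest to SOD2 (0.83) and SOD1 (0.76). The mean of the other 9 members was less closely matched by any gene, at best by HEM4 (0.84), a heme synthesis gene, COF1 (0.84), the cofilin gene, APE2 (0.84), an aminopeptidase gene, YER152C (0.84) and MST28 (0.83). Within the set TRR1 and OYE3 ran most opposed (-0.89) and TRR1 and GPX2 most alike (0.87). These values describe the same 16 arrays, which share their lines and times.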

How the data were processed

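Cy3-labelled RNA (per the labels' protocols) of 4 lines and 4 times was hybridised to 16 arrays. The authors deposited scanner files from Agilent Feature Extraction 10.7.1.1, per the file headers, with a processed intensity for each spot, background-subtracted and detrended but not scaled between arrays. A deposited value table gives 6107 probes as log2 values. Each probe has a median of 0 over the arrays of its slide, and column medians ran from -0.037 to 0.065. Differences between arrays of a slide went with those computed here (Pearson's r of at least 0.997 across genes, which does not measure scale). Levels before centring stay unknown, so it was used as an alternative for differences inside a slide and for changes from 0 min.

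Log2 intensities of a probe's 2 spots were averaged, leaving out non-uniform spots, and the array's 75th percentile was subtracted. The filter kept 6165 of 6227 genes, those with a probe well above background on 3 or more arrays; 28 genes had several probes and were represented by the brightest. Systematic names were matched to symbols in the RefSeq table (5738 matched), which is of another assembly than the file headers, so no positions are given. Fits used limma 3.58.1 in R 4.3.3 (lmFit, eBayes, two-sided, Benjamini-Hochberg, threshold 0.05). The time model held time and line on 16 arrays. Lines after removal were compared on the 12 later arrays in a model of line and time. A model of time, line and their interaction (before or after removal) gave differences at 0 min and in the change from it. The members, the pathway lists and the rule for naming genes (all 10 members, and up to 4 genes per list that passed with the largest difference) were chosen with earlier results of these data known. ZWF1 was named in addition. The fits were tested on simulated arrays. Alternatives were normexp, median and quantile scaling, other filters, averaged probes, trended variances, the value table, and fits without a line, time or slide.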

Additional observations from a re-analysis of the deposited data

Results flagged for a closer look

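SOD1 moved differently from its 0 min level in lines WT and 170 than in the vector line by a test of that difference (limma). Its mean change after removal was 0.31 in vec, -0.53 in WT and -0.51 in 170. The difference of the changes was -0.84 in WT (adjusted p = 0.045) and -0.82 in 170 (adjusted p = 0.028), while -0.66 in H missed the threshold (adjusted p = 0.061). SOD1 lay below its 0 min level at 3 of 3 times in each of these lines and above it at 3 of 3 times in vec. These values rest on 1 array at 0 min per line, with the spread taken from the later times. Of the 3 later times, leaving out the middle or the last made SOD1 miss the threshold in both WT and 170. Leaving out the earliest made it pass in H. By the same test 2.61% of all genes were lower in WT and 7.58% in 170. The difference in 170 lies within a slide, and those in WT and H cross slides, but a constant offset between the slides cancels in all of them.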

How the results depend on the processing

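Of 1713 recomputed single-gene tests of members, 828 belonged to results past the threshold, of which 738 stayed past it in the same direction, 88 missed it and 4 changed sign (2 of them among those that missed it), and 35 of the other 885 came to pass. The cause of the shifts below was not tested, except that leaving out a time leaves fewer arrays. With quantile normalization, 3 members were higher at 150 min (5 with the main scaling), 5 lower in H minus vec (8), 1 lower in H minus 170 (3), and for the change from 0 min of H minus vec 1 was higher and 1 lower (none). Fitted on the 2 lines alone, 5 were lower in H minus vec, 3 lower in 170 minus vec (6), none higher in H minus WT (0, after 1) and 1 higher in H minus 170 (none). The deposited value table gave 3 lower in 170 minus vec and 0 higher in H minus WT. The slide of vec and 170 alone gave 3 higher at 150 min, and normexp gave 4 lower in 170 minus vec at 0 min (2). In the change from 0 min of 170 minus vec 1 gene, TRR1, was higher with normexp, with quantile normalization, with all arrays well above background, with trend and robust variance and on the deposited table (none otherwise).

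Leaving out 1 time in turn, the members lower than vec after removal numbered 1 to 7 in WT, 5 to 8 in H and 2 to 5 in 170, and those higher 0 to 1 in 170. H minus WT had 0 to 2 higher and 0 to 1 lower, 170 minus WT 0 to 3 higher and 0 to 1 lower, and H minus 170 0 to 1 lower. At 0 min the range was 0 to 3 lower and 0 to 1 higher in WT, 2 to 6 lower and 0 to 1 higher in H, and 1 to 3 lower in 170. For the change from 0 min it was 0 to 1 lower in WT minus vec, 0 to 1 higher and 0 to 1 lower in H minus vec, and 0 to 1 higher and 0 to 2 lower in 170 minus vec. Over all genes, the number called in H minus vec after removal ran from 1324 (without 90 min) to 3131, in WT minus vec from 193 to 1887 and in 170 minus vec from 577 to 2141.

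Among values past the test, 4 signs turned, each under quantile normalization: TRX2 at 45 and 150 min (-0.52 and -0.22), TSA1 at 150 min (-0.50) and AHP1 in H minus vec (0.038). All other turned signs were of values not past the test. Under quantile normalization these were TRX2 at 90 min (-0.65), AHP1 in 170 minus vec (0.079), in H minus WT TSA1 (0.15), GPX2 (-0.0084, and -0.0033 on the deposited table), SOD1 (0.063) and AHP1 (0.23), in H minus 170 GPX2 (-0.0033), and at 0 min TSA2 (-0.025) and SOD1 (0.028) in WT and TRX2 (0.13), TSA1 (0.088) and SOD1 (0.16) in 170. With median scaling they turned for GPX2 in 170 minus WT (0.0082) and H minus 170 (-0.0078), TRR1 in H minus 170 (-0.022) and TSA2 in WT at 0 min (-0.019). With normexp they turned for TRR1 in H minus 170 (-0.025) and in the change of H minus WT (-0.030), TSA2 in WT at 0 min (-0.012) and SOD2 in the change of WT minus vec (0.028). On the slide of vec and 170 alone TSA1 was at 0.11 at 90 min and SOD1 at 0.056 at 150 min. Leaving out 1 line, SOD1 at 150 min ran from -0.32 to 0.0083. Leaving out 1 time, H minus WT ran from -0.089 to 0.016 for TSA1, -0.057 to 0.11 for GPX2 and -0.11 to 0.0078 for AHP1, GPX2 from -0.12 to 0.096 in 170 minus WT and -0.15 to 0.17 in H minus 170, TRR1 from -0.080 to 0.073 in H minus 170, SOD2 from -0.054 to 0.019 in the change of WT minus vec, and YHB1 from -0.27 to 0.033 in the change of H minus WT. No paired analysis was possible because the labels give no replicate numbers to pair arrays by and each line and time has 1 array; the fits match arrays by time or line through their own terms.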
